A study of Mus musculus with 8 samples.

Results

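The T cell receptor complex and the genes that mark T cell subsets were examined in wire-injured carotid arteries as a set of 10 genes: the CD3 chain genes Cd3e, Cd3d, Cd3g and Cd247, the coreceptor genes Cd4, Cd8a and Cd8b1, the kinase gene Lck, the costimulatory receptor gene Cd28 and the regulatory T cell gene Foxp3. All noncontrol probes that carry one of these names on the array were taken, which gave 13 probes of 55681. Tissue came from female mice, labelled as 6 weeks old, of mixed genetic background and on a western-type diet. All animals lacked apolipoprotein E (ApoE-/-), which raises plasma cholesterol, and each carotid artery was collected 14 days after wire injury. The groups were 4 miR-126+/+/ApoE-/- mice (controls, called miR-126+/+ here) and 4 miR-126-/-/ApoE-/- mice (called miR-126-/-), with 1 array per mouse; how the miR-126 allele was made is not given in the sources used here. The comparison asks what the injured artery expresses when miR-126, a microRNA of endothelial cells, is missing.

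The antigen receptor of a T cell does not signal by itself. It is held in the membrane with the CD3 gamma, delta, epsilon and zeta chains, whose tails carry immunoreceptor tyrosine-based activation motifs (ITAMs), pairs of tyrosines that the kinase LCK phosphorylates and that then dock ZAP70. CD4 and CD8 bring LCK to the receptor and divide helper from cytotoxic T cells, CD28 gives the second signal, and FOXP3 directs regulatory T cells. T cells enter the wall and adventitia of injured and atherosclerotic arteries, and both CD4 and CD8 alpha are also made by subsets of mouse dendritic cells.

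The probe sequences show which part of a transcript was read. The probes of Cd3d and Cd247 shown here are 60 bases long but span 232 and 1019 genomic bases, so each crosses an exon junction and reads spliced transcript, and both cover a complete activation motif. Capitals mark its 2 tyrosine-to-leucine stretches, which a script found in the same reading frame, a frame without a stop, with 7 codons between them. The Cd4 and Cd8a probes shown with them lie in single stretches of coding sequence, and each has a second probe elsewhere in its gene. Sequences are as given in the array files, 5′ to 3′, with positions on mouse build mm9.
Cd3d (chr9:44794171-44794402, plus strand): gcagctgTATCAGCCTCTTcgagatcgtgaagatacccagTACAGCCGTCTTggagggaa
Cd247 (chr1:167786567-167787585, plus strand): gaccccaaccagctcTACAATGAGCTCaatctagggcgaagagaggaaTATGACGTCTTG
Cd4 (chr6:124817706-124817765, minus strand): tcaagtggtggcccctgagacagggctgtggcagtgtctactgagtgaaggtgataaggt
Cd8a (chr6:71323885-71323944, plus strand): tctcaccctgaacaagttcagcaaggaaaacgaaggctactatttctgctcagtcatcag
The miRNA by which the groups differ is shown with its seed (bases 2 to 8) in capitals, as RefSeq gives it on GRCm38.p6 (chr2:26591402-26591423, plus strand).
mmu-miR-126a-3p: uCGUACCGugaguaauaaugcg

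The arrays were comparable overall. Between 55.9% and 61.5% of probes were well above background, 0 noncontrol spots were saturated, and pairs of arrays correlated at 0.974 to 0.99 over the 28090 probes that all arrays detected. Per the file headers the slide was the same for all mice, each genotype filling 1 of its rows, and the effect of the row cannot be told apart from that of the genotype. The smooth muscle actin gene Acta2 had a log2 signal of 7.28 ± 0.12 in miR-126+/+ and 7.40 ± 0.32 in miR-126-/- arteries (SD, n = 4 each). Egfl7, the host gene of miR-126, differed by 0.48 ± 0.13 (SE, adjusted p = 0.272), and no probe named for miR-126 was used. Apoe, deleted in all mice, gave 1.76 ± 0.53 and 2.38 ± 0.28 (SD, n = 4 each; adjusted p = 0.515), and whether its probe lies in the deleted stretch is not given in the sources used here. Signals are log2 values with the 75th percentile of each array set to 0, and they are compared within a probe only.

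No T cell receptor or subset gene differed between genotypes beyond the spread between mice. Of the 13 member probes, 12 were well above background on at least 3 arrays of a genotype and were tested, at least 1 for each of the 10 genes. In miR-126-/- arteries 10 of these 12 were higher and 2 were lower, with a median difference of 0.65, while the median over all 32481 probes tested was -0.01. None passed the test over all probes. In limma, 0 of 12 had an adjusted p under 0.05 (0.575 to 0.988) and 0 had an unadjusted p under 0.05. Among all probes 0.04% were called (0.0185% with a higher and 0.0216% with a lower miR-126-/- mean) and 9.89% had an unadjusted p under 0.05. The genotypes overlapped for all 12, whereas they did not overlap for 6.21% of all probes. In tissue of mixed cells, a change in the number of T cells and a change of RNA per T cell cannot be told apart.

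**Figure D1:**
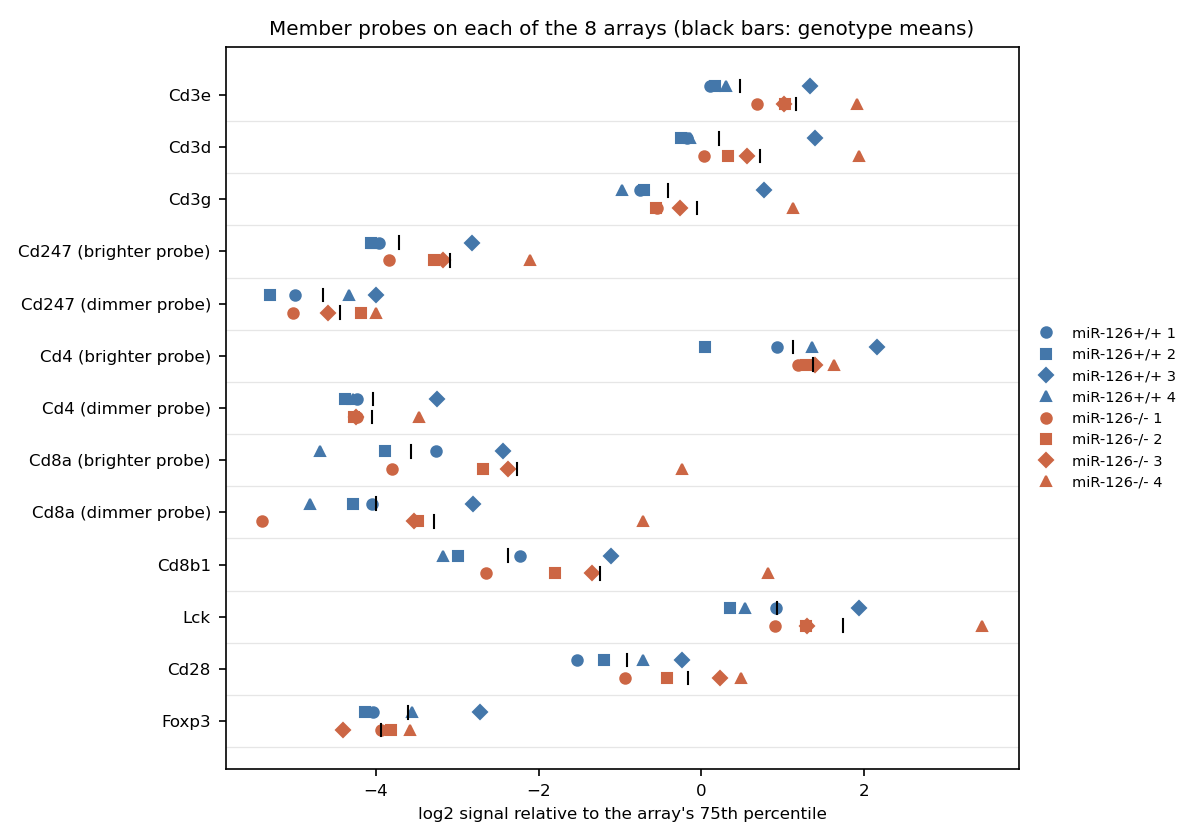
Log2 signal (x axis, 75th percentile of each array at 0) of the 13 member probes on each array; blue points are miR-126+/+ mice, orange points are miR-126-/- mice, a marker shape gives the replicate number and black bars are genotype means. Array miR-126+/+ 3 (blue diamond) lies to the right in its genotype for every tested probe, as does miR-126-/- 4 (orange triangle).

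Within each genotype 1 mouse stood at the top. Array miR-126+/+ 3 was the highest of the 4 miR-126+/+ arrays, and miR-126-/- 4 the highest of the 4 miR-126-/- arrays, for 12 of 12 tested member probes. Both held at once for 15.8% of all probes tested. The members lay by a median of 1.36 log2 units above the mean of the other miR-126+/+ mice on miR-126+/+ 3, and by 1.46 above the other miR-126-/- mice on miR-126-/- 4. Over all probes tested these medians were 0.07 and 0.04. Since all members rest on these mice, differences are given below with and without them.

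The CD3 chains form the signalling core and moved together from mouse to mouse. Cd3e, the epsilon chain, gave 0.10, 0.17, 1.33 and 0.30 in miR-126+/+ mice 1 to 4 and 0.68, 1.03, 1.01 and 1.91 in miR-126-/- mice 1 to 4. Every miR-126-/- value lay above miR-126+/+ 1, 2 and 4, and miR-126+/+ 3 lay above all miR-126-/- mice but mouse 4. The difference was 0.68 ± 0.35 (SE, n = 4 each; 1.61-fold; 95% interval -0.11 to 1.48; adjusted p = 0.582). It was 0.97 without miR-126+/+ 3 (adjusted p = 0.362) and 0.43 without miR-126-/- 4 (adjusted p = 0.737).

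Cd3d, the delta chain, was read by the activation motif probe printed above. It gave -0.18, -0.25, 1.39 and -0.14 in miR-126+/+ mice and 0.03, 0.33, 0.56 and 1.94 in miR-126-/- mice. Mice miR-126+/+ 1, 2 and 4 lay close together and below every miR-126-/- mouse. The difference was 0.51 ± 0.51 (SE; 95% interval -0.66 to 1.68; adjusted p = 0.794), and it went from 0.91 to 0.10 when miR-126+/+ 3 or miR-126-/- 4 was left out.

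Cd3g, the gamma chain, gave -0.75, -0.70, 0.77 and -0.97 in miR-126+/+ mice against -0.54, -0.56, -0.26 and 1.13 in miR-126-/- mice. The same 2 mice were high, each above all of the rest. The difference was 0.35 ± 0.50 (SE; 95% interval -0.79 to 1.5; adjusted p = 0.864), and it was 0.75 without miR-126+/+ 3 and -0.04 without miR-126-/- 4.

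Cd247 encodes the zeta chain, which carries more activation motifs than the other chains. Its motif probe gave -3.96, -4.06, -2.82 and -4.02 in miR-126+/+ mice and -3.83, -3.28, -3.17 and -2.10 in miR-126-/- mice, again with miR-126+/+ 3 and miR-126-/- 4 at the top. The difference was 0.62 ± 0.41 (SE; 95% interval -0.33 to 1.57; adjusted p = 0.691). It was 0.92 without miR-126+/+ 3 (adjusted p = 0.486) and 0.29 without miR-126-/- 4 (adjusted p = 0.848). A second Cd247 probe (chr1:167800324-167800383) was well above background on 2 of 4 arrays of each genotype and was not tested. Its means were -4.65 ± 0.60 in miR-126+/+ and -4.44 ± 0.45 in miR-126-/- arteries (SD, n = 4 each).

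The CD8 coreceptor genes had the widest spread of the members. Cd8b1, the beta chain that marks classical cytotoxic T cells, gave -2.23, -2.99, -1.11 and -3.17 in miR-126+/+ mice and -2.64, -1.80, -1.34 and 0.82 in miR-126-/- mice. Array miR-126-/- 4 lay 2.74 log2 units above the mean of the other miR-126-/- mice, where miR-126+/+ 3 lay 1.69 above its own group. The difference between genotypes was 1.14 ± 0.76 (SE; 2.20-fold; 95% interval -0.61 to 2.89; adjusted p = 0.693), 1.56 without miR-126+/+ 3 and 0.45 without miR-126-/- 4.

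Cd8a, the alpha chain, was read by a pair of probes. The brighter one (chr6:71328911-71328970, the mean of 10 spots) gave -3.26, -3.89, -2.43 and -4.68 in miR-126+/+ mice and -3.80, -2.68, -2.38 and -0.24 in miR-126-/- mice. Mouse miR-126-/- 4 was again far above the rest, and miR-126+/+ 4 was the lowest. The difference of 1.29 ± 0.77 (SE; 2.45-fold; 95% interval -0.48 to 3.06; adjusted p = 0.656) had the largest fitted value of any member probe and a wide interval, and was 1.67 without miR-126+/+ 3 and 0.61 without miR-126-/- 4. The coding probe printed above gave 0.71 ± 0.92 (adjusted p = 0.849). Its difference was 1.10 without miR-126+/+ 3 and -0.15 without miR-126-/- 4. Of the 4 miR-126-/- arrays, 3 read it well above background.

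Cd4 encodes the helper coreceptor. Its brighter probe (chr6:124814711-124814770) gave 0.93, 0.04, 2.16 and 1.36 in miR-126+/+ mice and 1.18, 1.28, 1.40 and 1.63 in miR-126-/- mice. The miR-126-/- mice lay close together (SD 0.20) and inside the range of the miR-126+/+ mice (SD 0.88). Mouse miR-126+/+ 3 lay 1.39 log2 units above its group, while miR-126-/- 4 lay 0.35 above its own. The difference was 0.25 ± 0.40 (SE; 95% interval -0.67 to 1.17; adjusted p = 0.883). It was 0.60 without miR-126+/+ 3 and 0.16 without miR-126-/- 4, and turned to -0.11 without miR-126+/+ 2. The coding probe printed above, the mean of 10 spots, gave -0.02 ± 0.29 (adjusted p = 0.988), 0.24 without miR-126+/+ 3 and -0.21 without miR-126-/- 4.

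Lck, the kinase that phosphorylates the activation motifs, gave 0.91, 0.35, 1.93 and 0.54 in miR-126+/+ mice and 0.90, 1.28, 1.30 and 3.45 in miR-126-/- mice. Its value on miR-126-/- 4 stood 2.29 log2 units above the other miR-126-/- mice, closer to the CD8 genes than to the CD3 chains. The difference was 0.80 ± 0.59 (SE; 1.75-fold; 95% interval -0.56 to 2.17; adjusted p = 0.731), 0.23 without that mouse and 1.14 without miR-126+/+ 3.

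Cd28, the costimulatory receptor, gave -1.53, -1.20, -0.24 and -0.72 in miR-126+/+ mice and -0.94, -0.42, 0.23 and 0.48 in miR-126-/- mice. Here miR-126-/- 3 and 4 lay above all miR-126+/+ mice, and miR-126-/- 1 lay below miR-126+/+ 3 and 4. The difference of 0.76 ± 0.38 (SE; 1.69-fold; 95% interval -0.11 to 1.63; adjusted p = 0.575) had the lowest p of the member probes. It was 0.99 without miR-126+/+ 3 and 0.55 without miR-126-/- 4.

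Foxp3, the factor of regulatory T cells (chrX:7172301-7172360), was the only member gene whose brightest probe was lower in miR-126-/- arteries. It gave -4.03, -4.13, -2.72 and -3.55 in miR-126+/+ mice and -3.93, -3.81, -4.40 and -3.58 in miR-126-/- mice. Array miR-126+/+ 3 alone was high, 1.19 log2 units above its group. The difference was -0.33 ± 0.32 (SE; 95% interval -1.07 to 0.42; adjusted p = 0.795), -0.03 without miR-126+/+ 3 and -0.44 without miR-126-/- 4.

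**Figure D2:**
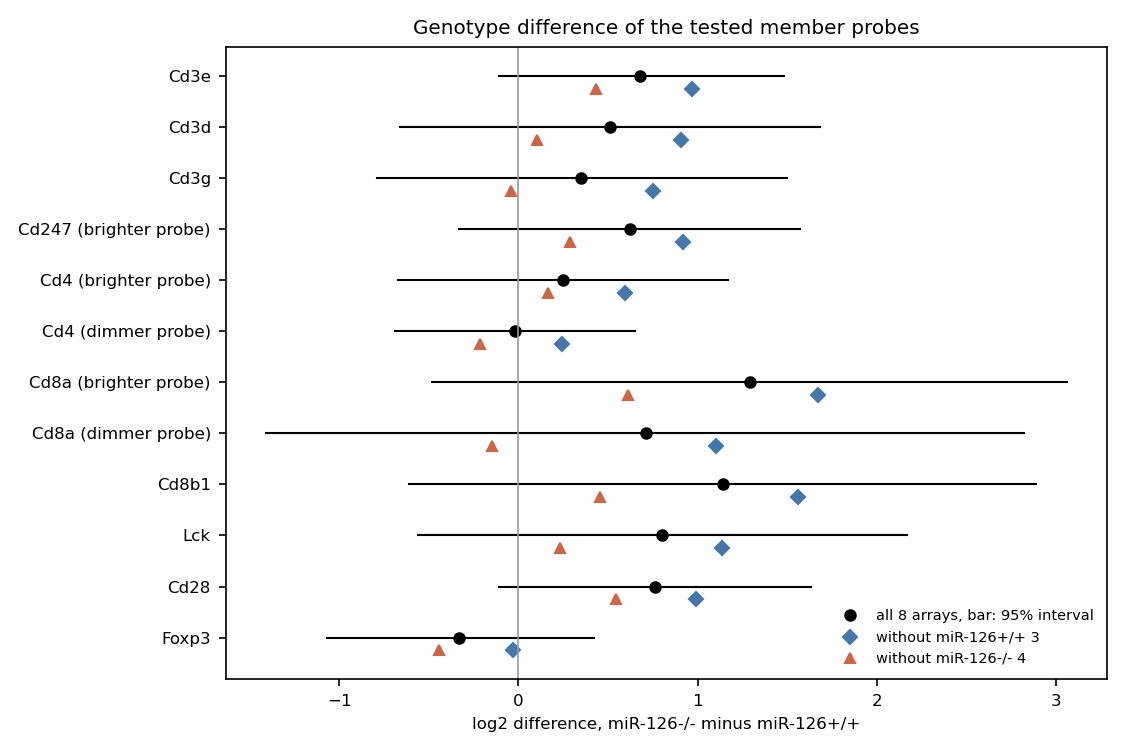
Fitted log2 difference (x axis, miR-126-/- minus miR-126+/+) of the 12 tested member probes; black points with bars are the fit on all 8 arrays with its 95% interval, blue diamonds the fit without miR-126+/+ 3 and orange triangles the fit without miR-126-/- 4. Every interval includes 0, and each triangle lies left of its diamond.

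The members were set against Cd3e across the 8 mice, 11 relations in all. Pearson's r was highest for Cd247 (r = 0.976, exact permutation p = 0.000223; Spearman's rho = 0.905, exact permutation p = 0.00456; adjusted 0.00123 and 0.0167) and for Cd3d (r = 0.953, exact permutation p = 0.000149; rho = 0.952, exact permutation p = 0.00114; adjusted 0.00123 and 0.0125). It was 0.926 for Lck, 0.915 for Cd8b1, 0.9 for Cd3g and 0.899 for Cd28. For the brighter Cd4 probe it was 0.708 (exact permutation p = 0.0489, adjusted 0.0538; rho = 0.833, exact permutation p = 0.0154, adjusted 0.0282). For Foxp3 it was 0.421 (exact permutation p = 0.301, adjusted 0.301; rho = 0.5, exact permutation p = 0.216, adjusted 0.216). After adjustment 9 of 11 passed by r and 9 by rho. Without miR-126-/- 4 and miR-126+/+ 1, the arrays farthest from the median of Cd3e, r was 0.971 for Cd247, 0.911 for Cd3d, 0.985 for Lck, 0.954 for Cd8b1, 0.799 for the brighter Cd4 probe and 0.417 for Foxp3. The miR-126+/+ array that was highest for every tested member was kept here. The relations without the highest array of each genotype were therefore not tested. The points share the scaling of their arrays. All tests were two-sided.

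Among genes outside the set, those most like Cd3e over the 8 arrays were Men1 (r = 0.985), Zbtb7b (0.976), Ifngr1 (0.974), Pde3b (0.974), Hist2h2aa2 (0.970), Fam101b (0.967), Gfi1 (0.958) and Mbnl3 (0.958). The Zbtb7b value comes from the brightest of its 3 tested probes. Of the miR-126-/- mice, the other two were highest in miR-126-/- 3, not in miR-126-/- 4. Zbtb7b encodes ThPOK, the factor of the CD4 lineage, Gfi1 a repressor active in lymphoid cells, and Ifngr1 a chain of the interferon gamma receptor. Of 28089 probes well above background on all arrays, 0.377% had r over 0.9. These values are descriptions across 8 mice.

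Genes next to the receptor in its signalling pathway had no common direction. Of 28 proximal signalling genes 27 were tested, 14 higher and 13 lower in miR-126-/- arteries with a median of 0.01, and 0 passed in limma (1 at an unadjusted p under 0.05, Nfatc2, at -0.33 ± 0.14 SE, adjusted p = 0.493). Several genes largely restricted to T cells were high in the same mice as the CD3 chains: Lat, the adaptor that ZAP70 phosphorylates, lay 1.92 log2 units above its group on miR-126-/- 4 and 0.59 on miR-126+/+ 3, and Zap70 1.25 and 1.43. Over all 27 tested genes, Themis and Trat1 among them, the median distance was 0.23 on miR-126-/- 4 and 0.47 on miR-126+/+ 3. Those arrays were the highest of their genotype for 15 and 22 of the 27. Themis and Trat1 passed the filter only through the miR-126-/- group (3 of 4 arrays, against 1 of 4), and no distance is given for them. Both are among the 14 higher genes, where their directions support nothing. On miR-126-/- 4, genes shared with other leukocytes lay closer to their group, and on miR-126+/+ 3 they were as far from it as Lat: the pan-leukocyte phosphatase gene Ptprc lay 0.20 above on miR-126-/- 4 and 0.60 on miR-126+/+ 3, and Vav1 0.16 and 0.79. Of 17 tested T cell surface and lineage genes 11 had a positive difference (median 0.18), and 0 were called in limma (1 at an unadjusted p under 0.05, S1pr1, at 0.43 ± 0.13 SE). Tcf7 and Bcl11b, factors of T cell commitment, lay 2.52 and 2.31 above on miR-126-/- 4 and 1.40 and 1.38 on miR-126+/+ 3. Over the 17 genes the median distance was 0.95 on miR-126-/- 4 and 1.09 on miR-126+/+ 3. Those arrays were the highest of their genotype for 11 and 14 of the 17. Il7r lay -0.27 from its group on miR-126-/- 4, and Thy1 lay -0.22 from its group on miR-126+/+ 3. Lef1 lay 4.44 below on miR-126-/- 4, where its spot fell in a local dim area of that array that held 0 member spots.

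The receptor chains themselves were poorly read. Of 11 receptor chain names on the array 3 were tested (Trav3n-3 at 0.50 ± 0.46, Tcrg-V1 at 0.14 ± 0.27 and Tcrg-C at -0.07 ± 0.38, SE), and 0 passed in limma (0 at an unadjusted p under 0.05). The gamma chain gene Tcrg-C, which marks gamma delta T cells, lay 1.60 log2 units above its group on miR-126+/+ 3 and 0.34 on miR-126-/- 4.

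The 2 mice with high members differed in the T cell genes that came with them. On miR-126+/+ 3 the genes of activated, helper and regulatory T cells were high. Icos, an activation receptor, gave -0.75, -1.32, 1.20 and -0.89 in miR-126+/+ mice and -0.79, -0.89, -1.07 and -0.48 in miR-126-/- mice, so that miR-126+/+ 3 stood above all others. Il2ra, the high-affinity interleukin-2 receptor chain of regulatory and activated T cells, lay 1.44 above its group on that array, the checkpoint receptor gene Pdcd1 1.65 and the granzyme gene Gzmb 1.68. On miR-126-/- 4 these genes lay 0.44, 0.64, -0.04 and -0.10 from the mean of the other miR-126-/- mice, in the same order. Of 13 tested costimulation and checkpoint genes, miR-126+/+ 3 was the highest miR-126+/+ array for 12 and miR-126-/- 4 the highest miR-126-/- array for 7. Their median distance above the group was 0.86 and 0.16.

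Between genotypes these lists gave 0 calls in limma. Costimulation and checkpoint genes were lower for 10 of 13 (median -0.22, 0 at an unadjusted p under 0.05). T helper and regulatory genes were lower for 9 of 14 (median -0.21, 0 at an unadjusted p under 0.05), with Bcl6 at -0.30 ± 0.14 (SE, adjusted p = 0.527) and Tbx21 at 0.36. Among the lower ones, Ccr8 and Il4 were well above background on 3 of 4 miR-126+/+ and 2 of 4 miR-126-/- arrays. They were tested only through the miR-126+/+ group, so their directions support nothing. Of that list 8 genes were not tested, among them the cytokine genes Ifng, Il2, Il10 and Il17a. Cytotoxic and NK genes were lower for 8 of 14 (median -0.09, 2 at an unadjusted p under 0.05). The pore-forming perforin gene Prf1 gave -0.43 ± 0.12 (SE, adjusted p = 0.287) and Gzmb -1.28 ± 0.48 (adjusted p = 0.425), while the CD8 genes had positive differences.

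On miR-126-/- 4 the members came with genes of immature thymocytes, a list chosen after values had been seen. Rag1, which recombines receptor genes, gave -2.70, -3.54, -1.46 and -6.82 in miR-126+/+ mice and -3.69, -1.78, -1.39 and 1.21 in miR-126-/- mice. It was not well above background on miR-126+/+ 4. Its highest and lowest arrays, miR-126-/- 4 and miR-126+/+ 4, were also those of the brighter Cd8a probe and of Cd8b1. Dntt, the terminal transferase of developing lymphocytes, was well above background on all 8 arrays and gave 0.44, -0.53, 1.66 and 0.10 in miR-126+/+ mice and -0.22, 0.46, 1.01 and 3.25 in miR-126-/- mice. For Rag1, Dntt, Ptcra and Ccr9 miR-126+/+ 3 and miR-126-/- 4 were the highest arrays of their genotype. These arrays lay above their groups by 2.89 and 3.5 for Rag1 and by 1.65 and 2.83 for Dntt. The distances were 1.02 and 1.42 for Ptcra and 1.45 and 1.92 for Ccr9. The list of 6 also holds Rag2 and Arpp21, for which no distance is given. The list mean, each gene centred over the 8 arrays, ran from -1.35 to 0.62 in miR-126+/+ mice and from -0.67 to 2.47 in miR-126-/- mice. The thymic epithelial genes Foxn1 and Psmb11 passed background on miR-126-/- 4 alone, at -4.05 and -3.55. Aire, a gene of the same epithelium, differed between its probes: the first passed background on that array and on miR-126-/- 2, at -4.61 and -4.77, with a miR-126-/- mean of -5.29 against -5.06 in miR-126+/+ mice, and the second passed it on miR-126-/- 1 alone. Between genotypes 0 of the 6 thymocyte genes passed in limma (1 at an unadjusted p under 0.05, Arpp21). Arpp21 and Rag2 each passed background in 1 of 4 miR-126+/+ mice and were tested only through the miR-126-/- group. This p, the directions of the list and its mean, which includes both genes, therefore support nothing. As the list was chosen after values had been seen, its height on these arrays supports nothing either. Rag1 and Dntt are also genes of B cell precursors. Whether thymic or other tissue was collected with the artery of miR-126-/- 4 was not tested, so the member values of this mouse cannot be read as those of T cells in the artery alone.

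**Figure D3:**
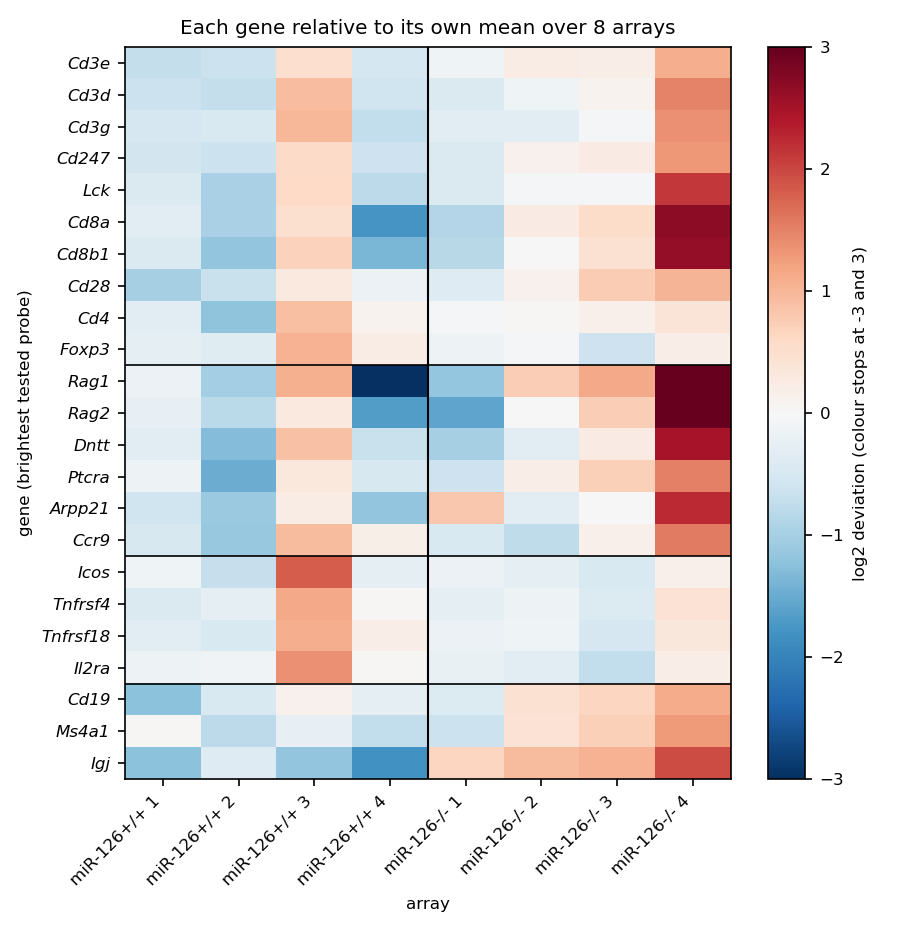
Log2 deviation of each gene from its own mean over the 8 arrays (colour, limited at -3 and 3) with genes in rows and arrays in columns; the blocks from top to bottom are the 10 members, 6 immature thymocyte genes, 4 genes of activated and regulatory T cells, and 3 B cell or plasma cell genes. Array miR-126+/+ 3 is high for the members and for Icos (log2 signal 1.20), and miR-126-/- 4 for the members and for Rag1 (log2 signal 1.21).

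Markers of other cells moved with the members to different degrees. B and plasma cell genes were higher in miR-126-/- arteries for 10 of 13 tested (median 0.56, 0 called in limma, 7 at an unadjusted p under 0.05, all higher). Tnfrsf17, among these 7, was tested only through the miR-126-/- group (4 of 4 arrays, against 1 of 4). Its direction and its p support nothing. Igj, the joining chain of secreted antibody, gave 0.82 ± 0.58 in miR-126+/+ and 3.12 ± 0.57 in miR-126-/- arteries (SD, n = 4 each; adjusted p = 0.0998). The B cell list mean ran from -0.43 to -0.13 in miR-126+/+ mice and from -0.22 to 0.79 in miR-126-/- mice, with the highest value of each genotype on miR-126-/- 4 and miR-126+/+ 3. Dendritic cell genes were highest on miR-126+/+ 3 (list mean 0.49; 12 of 15 lower in miR-126-/- arteries, 1 at an unadjusted p under 0.05), as was the mean of lymph node stromal genes (0.47; 10 of 12 lower, 2 at an unadjusted p under 0.05, among them Glycam1 at -1.16 ± 0.38 SE). Of these 12 stromal genes, miR-126+/+ 3 was the highest of its genotype for 6 and miR-126-/- 4 for 9. On miR-126+/+ 3, Cxcl13 lay 3.39 from the mean of its group and Lyve1 -1.02. Cxcl13 was tested only through the miR-126-/- group (4 of 4 arrays, against 2 of 4), so its direction supports nothing. The list mean of macrophage genes stayed between -0.22 and 0.34 on all arrays, with 8 of 15 genes lower. All 3 lists had 0 called in limma. The part of these cells in the member values was not tested.

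Tissue next to the artery was uneven too. Adipocyte genes were higher in miR-126-/- arteries for 14 of 14 tested (median 1.32, 13 at an unadjusted p under 0.05, 0 called in limma). Lep, among the 14, was tested only through the miR-126-/- group (4 of 4 arrays, against 2 of 4), so its direction supports nothing. Their list mean ran from -1.23 to 0.18 in miR-126+/+ mice and from 0.15 to 1.03 in miR-126-/- mice. It was lowest on miR-126+/+ 3, where the members were high, and highest on miR-126-/- 4. Of skeletal muscle genes 9 of 13 were higher (0 called, 0 at an unadjusted p under 0.05). Their list mean was highest on miR-126+/+ 2 and miR-126-/- 1, at 2.93 each, mice in which the member mean was -0.79 and -0.41. Ckm, among the lower ones, was tested only through the miR-126+/+ group (3 of 4 arrays, against 2 of 4). The list mean of artery smooth muscle genes ran from -0.33 to 0.44 (8 of 10 genes higher, 0 called, 1 at an unadjusted p under 0.05).

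**Figure D4:**
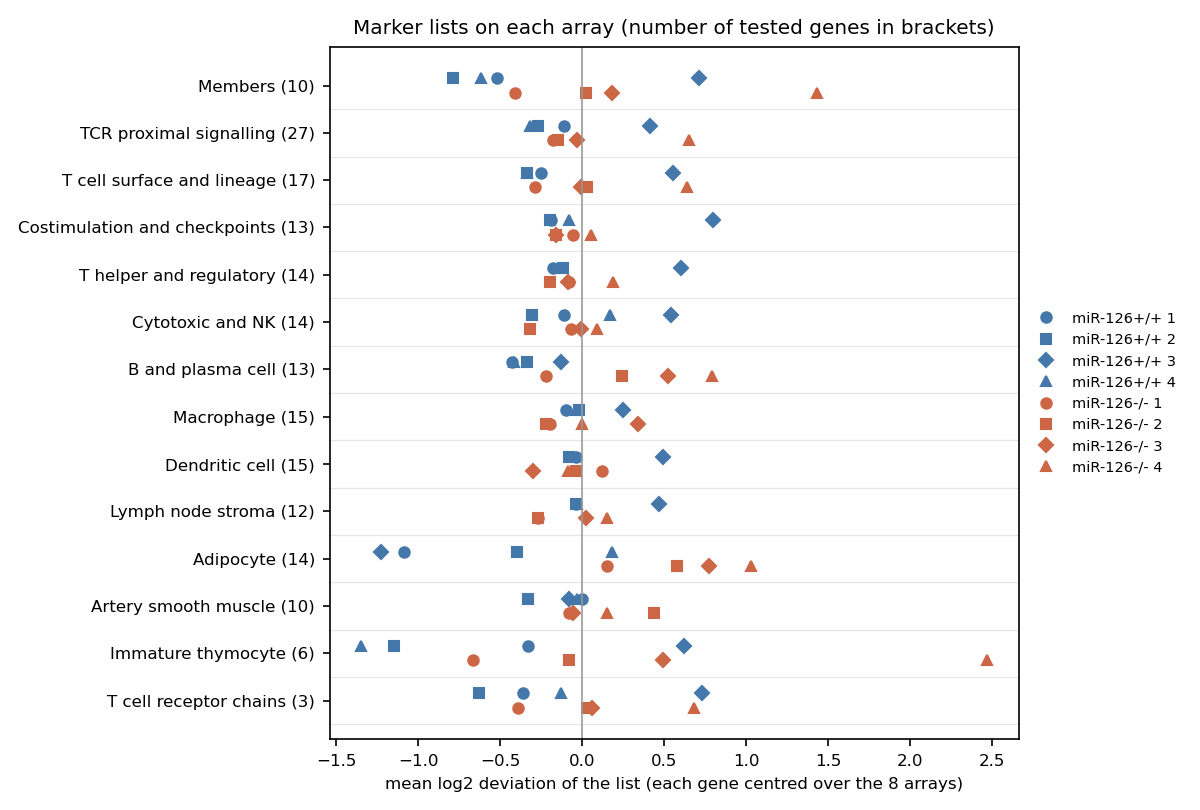
Mean log2 deviation (x axis, each gene centred over the 8 arrays) of the members and of 13 marker lists on each array, with the number of tested genes in brackets; colours and shapes give genotype and replicate. The member mean runs from -0.79 to 0.71 in miR-126+/+ mice and from -0.41 to 1.43 in miR-126-/- mice.

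Because CD3 and Lck genes varied together between mice, their promoters were read for a shared stretch. The letters ACTTCCT, the core of the ETS family's binding site in reverse (AGGAAGT on the other strand), were chosen after the promoters had been read. The RefSeq table holds 9 member promoters, for 7 of the 10 members. On either strand and within 250 bases before the start the letters are found in 5 of these 9 (of Cd247, Cd3d, Cd3e and Lck). The promoters of Cd3g, also a CD3 chain gene, and of Cd8a and Foxp3 lack them. Among all 32851 promoters 7.69% have them. Since the letters were picked from these same member promoters, the share of the members had to be high and is not set against that of all promoters. Windows of 80 bases are printed with these letters in capitals (RefSeq, GRCm38.p6); a match is not evidence of binding.
Cd3e (chr9:45009612-45009691, minus strand): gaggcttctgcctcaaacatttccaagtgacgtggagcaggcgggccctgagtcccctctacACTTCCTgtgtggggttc
Cd247 (chr1:165788586-165788665, plus strand): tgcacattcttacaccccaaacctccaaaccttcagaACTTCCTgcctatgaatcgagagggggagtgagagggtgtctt
Lck (chr4:129558444-129558523, minus strand): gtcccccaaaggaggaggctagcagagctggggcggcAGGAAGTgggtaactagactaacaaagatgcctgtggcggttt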

How the data were processed

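Total RNA (100 ng per mouse) of 8 carotid arteries was amplified, labelled with Cy3 and read on Agilent arrays, per the labels' protocols. Per the submitters' processing notes and the file headers, the deposited intensity values come from Agilent Feature Extraction 10.7.3.1 in 1 colour, background-subtracted, linear and not scaled between arrays. The authors' deposited table repeats this intensity (median log2 difference 0 on each array). Control spots and outlier spots (146 to 216 per array) were left out, spots of a probe were averaged, and log2 of the processed signal was set relative to the array's 75th percentile (619.7 to 864.6 intensity units). The number of arrays limits the precision. Probes well above background on at least 3 of 4 arrays of a genotype (32481) were fitted with limma 3.58.1 in R 4.3.3 (no covariate, two-sided, Benjamini-Hochberg over all probes tested, threshold 0.05), probe by probe because members are described by all their probes. Python 3.11.15, pandas 2.3.3, numpy 2.4.6, scipy 1.17.1 and matplotlib 3.10.9 served for the rest.

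For lists, each gene stands with its brightest tested probe. Probe names are those of the array files, and the RefSeq accession of 12 of 13 member probes led to the same symbol in the GRCm38.p6 table. The members, lists and alternatives were chosen with earlier results of these data known. The text names all members, up to 3 genes per list by smallest p, and the 8 genes most like Cd3e (some results are not reported here); other genes, among them Icos, Pdcd1, Tcf7, Bcl11b, Themis, Trat1, Zap70, Ptprc, Vav1, Lef1 and Acta2 and the thymus lists, were chosen after their values were seen. The fit was tested on simulated data: of 200 probes changed by 1 log2 unit among 32427, 60.0% were recovered, and of those changed by 2 units 81.0%. The changed probes were drawn from all of these probes, each with its own spread. The rates are therefore not those of the members, whose SE ran from 0.29 to 0.92. The alternatives left out each array in turn or the dim area, or took quantile normalization, normexp (offset 50) or the deposited table. Others took the 75th percentile over probes well above background on all arrays, changed the filter or kept the brightest probe per gene. The rest used the replicate as a block, or fitted array weights or an intensity trend.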

Additional observations from a re-analysis of the deposited data

Results flagged for a closer look

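In groups of 4, a value was marked when its gap to the nearest other value took over 0.829 of the group's range. Chance marks about 1 in 20 groups, and 7 of 26 member groups were marked. Of these, 5 were miR-126+/+ 3, high for Cd3e (1.33), Cd3d (1.39), Cd3g (0.77), the brighter Cd247 probe (-2.82) and the Cd4 coding probe (-3.25). The other 2 were miR-126-/- 4, high for the Cd4 coding probe (-3.47) and for Lck (3.45). Since members vary together and come from the same mice, these are not independent.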

How the results depend on the processing

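A member probe was called in 0 of 20 alternatives in limma (0 to 3 of them at an unadjusted p under 0.05, lowest adjusted p 0.300), and 229 of 237 member differences kept their direction. The Cd4 coding probe turned to 0.0604 with array weights and ran from -0.21 to 0.24 with 1 array left out. Left-out arrays took the coding Cd8a probe from -0.147 to 1.41, the brighter Cd4 probe from -0.11 to 0.60 and Cd3g from -0.043 to 0.748. The count of probes called, 13 of 32481, was 39 with normexp, 7 with probes above background on all 8 arrays, 27 with the brightest probe per gene, 8 with an intensity trend, 63 with array weights and 0 with the replicate block in limma (2883 at an unadjusted p under 0.05), and 0 to 52 with 1 array left out. Leaving out miR-126+/+ 1 gave 7 calls, miR-126+/+ 2 gave 3 and miR-126+/+ 4 gave 52. Leaving out miR-126-/- 1 gave 2, miR-126-/- 3 gave 3, and miR-126-/- 2 gave 0 in limma (2514 at an unadjusted p under 0.05). The cause was not tested. Same-numbered mice share only a number: their deviations correlated at 0.149, -0.301, -0.013 and 0.017, and the replicate block called 0 members. Signal over background limits the second Cd247 probe, Themis, Trat1, Rag2, Arpp21, Tnfrsf17, Ccr8, Il4, Lep, Ckm, Cxcl13 and the thymic epithelial genes.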
